A study of Mus musculus with 2 samples.

Results

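The 10 genes described here are markers of stem cells of the intestinal crypt. Lgr5, Olfm4, Ascl2, Smoc2, Rgmb and Cdca7 mark the cycling stem cells of the crypt base, and Lrig1, Bmi1, Tert and Hopx are markers proposed for slower-cycling reserve stem cells above them. They were taken by gene symbol, and all 10 were found among the 18919 genes of the deposited table. RNA came from intestine of C57BL/6 mice that all carried the APCmin mutation, a truncation of the tumour suppressor Apc that gives intestinal adenomas. The control pool had this genotype alone, and the knockout pool was APCmin; Setd2IEC-/-, which also lacks Setd2, the methyltransferase for lysine 36 of histone H3, in the intestinal epithelium. All mice were untreated and 2 months old, and the RNA of 3 littermates was mixed for the single library of each genotype. The Cre line behind the deletion and the stretch of intestine taken are not given in the sources used here. With 1 library per genotype no difference could be checked against replicates, no p-value was computed, and the 95% intervals below cover the error of counting reads and say nothing of how mice or pools vary.

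Crypts renew the epithelium from stem cells that sit between Paneth cells at the base. R-spondin, bound by Lgr5 or its relatives, keeps Wnt receptors at the surface of these cells, and Wnt signalling through beta-catenin and TCF factors then drives genes such as Ascl2. Mutation of Apc releases beta-catenin from degradation, and adenomas of APCmin mice contain cells with the crypt base programme. Reserve stem cells are thought to restore the crypt base after injury. Several of the 10 genes are not restricted to stem cells: Smoc2 is also made by stromal cells, Hopx by other epithelial cells and lymphocytes, and Bmi1 in most cell types. RNA came from frozen intestinal tissue and not from isolated cells, so a larger share of stem cells and more RNA per stem cell cannot be told apart.

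Expected counts summed to 8809678 (control) and 8646358 (knockout), and 13253 genes were measured, which means an FPKM of 1 or more in at least 1 library. FPKM is the count per kilobase of transcript scaled to the mapped total, so it can be set side by side between genes. Setd2 had 513 counts in the control and 254 in the knockout pool, which is 0.504 times the control share of reads (95% counting interval 0.432 to 0.587). Epithelial markers were abundant in both pools. Epcam, an adhesion protein of all epithelia, was at 686.63 FPKM in the control and 771.27 in the knockout pool, and all 32 genes of a pan-epithelial list were measured. Across the measured genes the median log2 ratio of knockout over control, computed after adding 1 FPKM to both, was 0.08. Adding 1 FPKM understates the difference of scarce genes, so the ratio of library-scaled counts is given beside it.

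The 10 genes lie on 8 chromosomes. In mouse build GRCm38 (mm10), with RefSeq positions, Lgr5 lies at chr10:115450314-115587780, Olfm4 at chr14:80000302-80023141, Ascl2 at chr7:142966822-142969264 and Cdca7 at chr2:72476187-72486892. Smoc2 at chr17:14279490-14404790 and Rgmb at chr17:15804661-15831246 share chromosome 17. Lrig1 lies at chr6:94604529-94700298, Bmi1 at chr2:18677018-18686629, Tert at chr13:73626911-73649843 and Hopx at chr5:77086986-77115123. The deposited table counts 1 RefSeq transcript for each gene except Hopx, which has 3.

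RefSeq promoter windows of 300 bases, from 250 before to 50 after a start, were matched by gene identifier for 8 of the 10 genes, in 11 windows; Lgr5 and Smoc2 had no entry. The 250 bases before the start are shown for 5 genes, 5′ to 3′ on the strand of the gene. Olfm4 is the most abundant of the 10, Rgmb shares a sequence feature with it, and Ascl2 is the transcription factor of the crypt base. Lrig1 had the highest log2 ratio with 1 FPKM added, and Bmi1 was the only gene with a lower level in the knockout pool. The windows are chr14:80000052-80000301 (plus strand) for Olfm4, chr17:15831247-15831496 (minus) for Rgmb, chr7:142969265-142969514 (minus) for Ascl2, chr6:94700146-94700395 (minus) for Lrig1 and chr2:18676768-18677017 (plus) for Bmi1. The start used for Lrig1, at 94700145, lies inside the gene as annotated (to 94700298), so part of its window is within the gene. Capitals mark matches to the motifs described next.
Olfm4: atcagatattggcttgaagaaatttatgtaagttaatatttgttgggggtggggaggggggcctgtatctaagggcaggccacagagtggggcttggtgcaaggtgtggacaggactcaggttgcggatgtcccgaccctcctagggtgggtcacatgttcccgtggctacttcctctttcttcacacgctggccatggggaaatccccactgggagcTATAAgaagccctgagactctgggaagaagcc
Rgmb: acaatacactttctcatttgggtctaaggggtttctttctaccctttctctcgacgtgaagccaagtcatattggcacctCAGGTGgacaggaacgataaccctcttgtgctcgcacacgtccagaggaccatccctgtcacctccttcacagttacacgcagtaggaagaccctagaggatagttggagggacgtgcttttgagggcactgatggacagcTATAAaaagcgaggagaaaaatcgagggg
Ascl2: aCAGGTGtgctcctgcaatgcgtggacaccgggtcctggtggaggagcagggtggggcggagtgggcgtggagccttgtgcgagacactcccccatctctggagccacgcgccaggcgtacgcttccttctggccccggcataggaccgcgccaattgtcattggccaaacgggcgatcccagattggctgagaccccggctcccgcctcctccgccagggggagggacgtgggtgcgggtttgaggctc
Lrig1: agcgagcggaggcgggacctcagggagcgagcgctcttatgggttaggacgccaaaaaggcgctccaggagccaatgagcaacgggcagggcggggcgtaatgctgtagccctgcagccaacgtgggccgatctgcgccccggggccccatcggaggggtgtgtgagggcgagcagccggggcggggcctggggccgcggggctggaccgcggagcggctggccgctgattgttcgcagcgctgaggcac
Bmi1: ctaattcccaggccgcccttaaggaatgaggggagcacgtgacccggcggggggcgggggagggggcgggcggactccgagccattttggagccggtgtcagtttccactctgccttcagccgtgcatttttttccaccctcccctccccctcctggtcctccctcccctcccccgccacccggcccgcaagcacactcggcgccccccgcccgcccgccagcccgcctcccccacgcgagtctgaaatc

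The letters searched were CTTTGAA and CTTTGAT, which TCF factors bind, and CAGCTG and CACCTG, 2 forms of the E-box that basic helix-loop-helix factors such as Ascl2 bind, all on both strands. TATAA, the core of the TATA box, was searched on the gene's strand and was added after the sequences were seen. TATAA began 32 bases before the start of Olfm4 and 29 bases before the first start of Rgmb. It was in 3 of the 11 windows, 2 of which overlap at Rgmb, and in 17.5% of the 32851 windows of all genes. CACCTG was in windows of Ascl2, Rgmb and Tert and in 20.2% of all windows. In Tert it occurred at 2 sites, beginning 241 and 111 bases before the start. In Ascl2 and Rgmb it is read on the other strand, as CAGGTG above. CAGCTG was in 1 Hopx window, after the start, and in 16.3% of all windows. Neither TCF form was in any of the 11 windows; CTTTGAA was in 5.14% and CTTTGAT in 3.73% of all windows. The TATAA of the 2 Rgmb windows is 1 site, and the other matches did not overlap. Base composition differed among the 8 genes with a window. The Lrig1 window was 73% G and C, higher than 94.3% of all windows, and those of Ascl2 and Bmi1 were at 67% and 66.3%. The Olfm4 window, at 52.3%, lay next to the median of 52.7%.

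Levels of the 10 genes spanned 147-fold in the control and 106-fold in the knockout pool. In the control pool Olfm4 was highest at 90.98 FPKM, followed by Hopx at 55.0, Smoc2 at 15.7 and Cdca7 at 14.71. Rgmb (8.36), Lrig1 (8.07) and Bmi1 (5.04) were intermediate, and Ascl2 (2.47), Lgr5 (1.59) and Tert (0.62) were lowest. The knockout pool had the same order except that Lrig1 (11.88 FPKM) stood above Rgmb (9.31). In the control pool the intervals overlapped for the neighbours Smoc2 and Cdca7, Rgmb and Lrig1, and Ascl2 and Lgr5. In the knockout pool this held for Bmi1 and Ascl2 and for Ascl2 and Lgr5. Overlap does not show that levels are equal, and the differences between neighbours were not tested. Lgr5, which defines the crypt base stem cell, was thus among the least abundant of its markers, and 86.3% of measured genes had a higher FPKM in the control pool. Tert reached 1 FPKM in the knockout pool only and counts as measured through that pool alone.

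**Figure D1:**
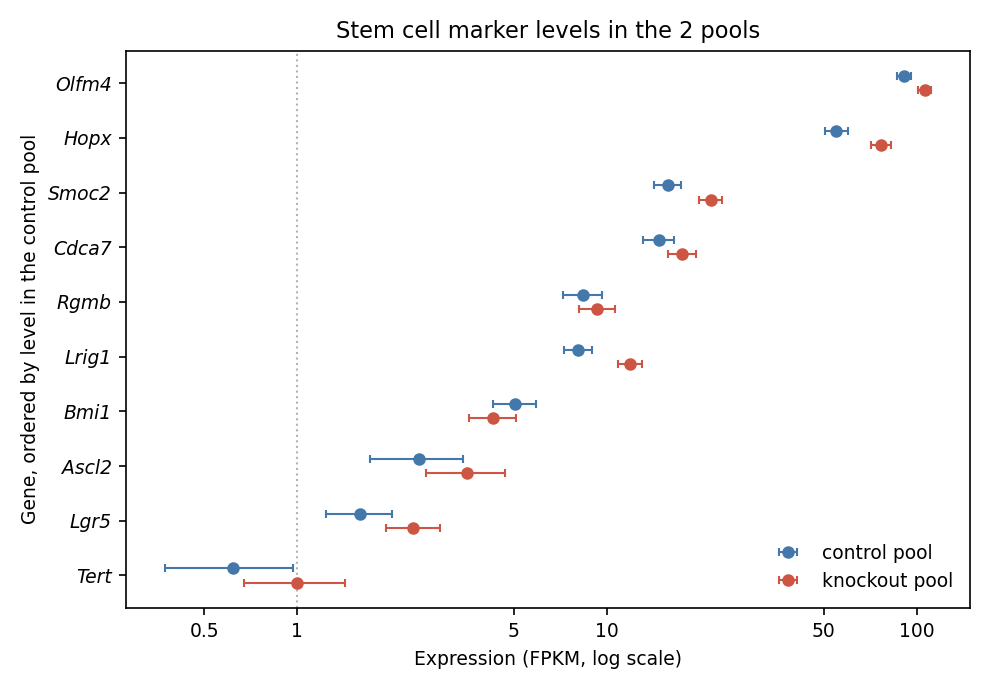
FPKM of the 10 stem cell markers (log scale) in the control and knockout pools, 1 library each; bars are exact 95% Poisson intervals of the counts and the dotted line is 1 FPKM. For 9 genes the knockout point lies to the right, and for Bmi1 (5.04 and 4.28 FPKM) to the left.

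None of the 10 genes was 2-fold different between the pools, but 9 of them were higher in the knockout pool. By the 2-fold rule (a log2 ratio of 1 or more, or of -1 or less) 0 of 10 were higher and 0 lower, where 2.78% and 1.28% of measured genes were, so this count lies near the background. A log2 ratio above 0 was found for 9 of 10, against 62.5% of measured genes, and one below 0 for 1 of 10, against 37.2%. The median of the 10 was 0.34, against 0.08. The counting interval of the ratio lay above 1 for 6 of 10, against 28.0% of measured genes, and below 1 for 0, against 12.5%. Among the 10953 measured genes with control counts in the range of the 10 markers (chosen after the data were seen), 27.1% had an interval above 1. The 6 genes were Lgr5, Olfm4, Smoc2, Cdca7, Lrig1 and Hopx. For 7 of the 10 the upper bound was below 2; Lgr5, Ascl2 and Tert, with fewer than 100 counts in each pool, were the exceptions. A count divided by the FPKM gives the transcript length used, and the ratio of this length between pools ran from 0.997 for Tert to 1.003 for Hopx, so FPKM and count ratios carry the same information.

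**Figure D2:**
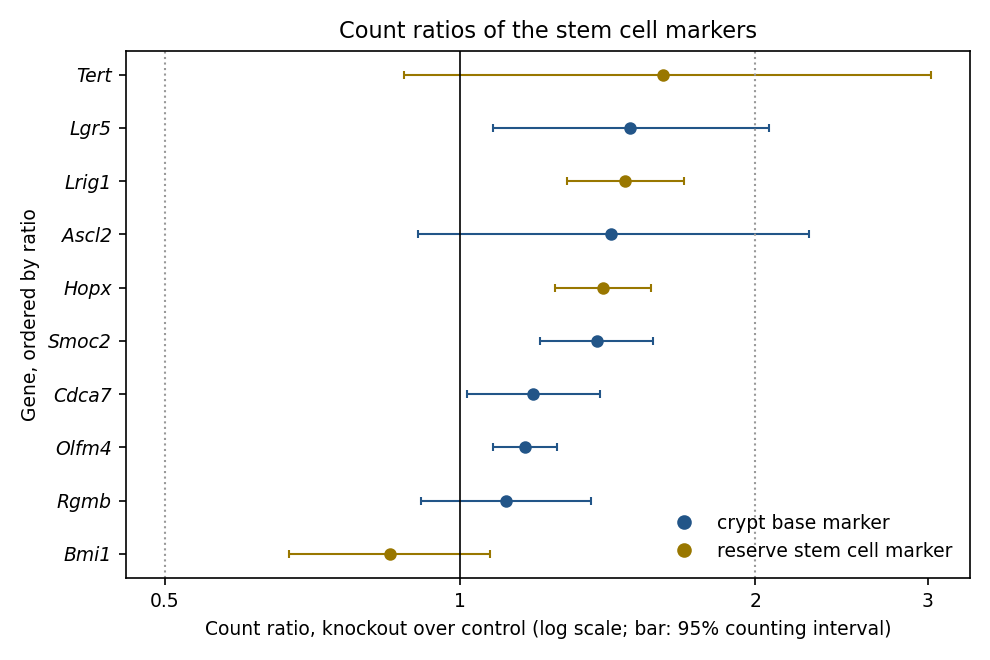
Ratio of library-scaled expected counts, knockout over control (log scale), for the 10 genes; points are ratios, bars 95% counting intervals, dotted lines 2-fold in either direction. The bars of Ascl2, Rgmb, Tert and Bmi1 cross 1, and Lrig1 (1.28 to 1.69) and Hopx (1.25 to 1.57) lie clear of it.

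All 6 crypt base markers were higher in the knockout pool, by 1.11 to 1.49 times in FPKM, where 62.5% of measured genes had a log2 ratio above 0. For 4 of the 6 the counting interval lay above 1, against 28.0% of measured genes. Lgr5, the R-spondin receptor, was at 1.59 FPKM in the control and 2.37 in the knockout pool, from 66.73 and 97.69 expected counts. Its count ratio was 1.49 (1.08 to 2.06), and 16.7% of measured genes had a higher log2 ratio. Olfm4, a secreted glycoprotein abundant in crypt base cells, was at 90.98 and 106.02 FPKM, from 1310 and 1498 counts. Its ratio of 1.17 (1.08 to 1.26) was small and the most precise of the 10, with 31.9% of measured genes above it in log2 ratio. Smoc2, a secreted matricellular protein, was at 15.7 and 21.64 FPKM, from 394 and 533 counts, a ratio of 1.38 (1.21 to 1.57).

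Cdca7, a nuclear protein that recruits the chromatin remodeller Hells, was at 14.71 and 17.48 FPKM, from 307 and 358 counts, a ratio of 1.19 (1.02 to 1.39). That interval included 1 after scaling by the median ratio of measured genes (0.950 to 1.30). Ascl2, a Wnt-driven transcription factor that Lgr5+ cells require, was at 2.47 and 3.53 FPKM, but from only 35 and 49 counts. Its ratio of 1.43 (0.906 to 2.27) is close to that of Lgr5, but a difference between the pools was not detectable at this depth. Rgmb, a membrane-anchored co-receptor for BMP ligands, was at 8.36 and 9.31 FPKM, from 195 and 213 counts. Its ratio of 1.11 (0.912 to 1.36) was the lowest of the crypt base markers, and 42.3% of measured genes had a higher log2 ratio. The genes with the steeper ratios, Lgr5, Ascl2 and Smoc2, included the 2 least abundant of the group, while Olfm4 was the most abundant. The intervals of Lgr5, Ascl2 and Smoc2 all overlapped that of Olfm4, which does not show that the ratios are equal. The differences between these ratios were not tested.

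Of the 4 reserve stem cell markers, 2 had a counting interval above 1, against 28.0% of measured genes. Tert was also higher and Bmi1 lower in the knockout pool, both with intervals that include 1. Lrig1, a membrane protein that restrains ErbB receptors, was at 8.07 and 11.88 FPKM, from 357 and 516 counts. Its ratio of 1.47 (1.28 to 1.69) gave the highest log2 ratio of the 10 with 1 FPKM added, 0.51, which 10.3% of measured genes exceeded. Hopx, a small homeodomain protein that does not bind DNA itself, was at 55.0 and 76.71 FPKM, from 533 and 732 counts, a ratio of 1.40 (1.25 to 1.57). It added 21.71 FPKM in the knockout pool, the largest difference in level of the 10, against 15.04 for Olfm4.

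Tert, the catalytic subunit of telomerase, was at 0.62 and 1.0 FPKM, from 19 and 30 counts. Its count ratio of 1.61 was the highest of the 10 and its interval, 0.876 to 3.02, the widest, so no difference was detectable at this depth. Bmi1, the ring finger subunit of a polycomb complex, was at 5.04 FPKM in the control and 4.28 in the knockout pool, from 161 and 134 counts. Its ratio was 0.848 (0.669 to 1.07), and 84.1% of measured genes had a higher log2 ratio. With edgeR's TMM scaling of the library totals, its interval lay below 1 (0.620 to 0.994). The interval of Bmi1 did not overlap those of Lgr5, Olfm4, Smoc2, Lrig1 and Hopx. Besides these 5 pairs, only Olfm4 and Lrig1 had intervals apart among the 45 pairs of the 10 genes. Pairs with overlapping intervals may still differ, which was not tested.

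Neighbouring and overlapping genes bear on which reads a marker could receive, since the sources used here do not say whether the libraries kept the strand. Commd3, whose last base lies 786 bases upstream of Bmi1 on the same strand, was at 36.25 FPKM in the control and 31.71 in the knockout pool, giving a ratio of 0.874 (0.732 to 1.04). Both genes of that pair thus had ratios below 1 with intervals that include it. Slc25a26 overlaps the last exon of Lrig1 by 144 bases on the other strand, with 64 and 77 counts, far fewer than Lrig1. Hopxos, an antisense transcript, overlaps exons of Hopx by 412 bases, and the lincRNA Gm6999 shares 153 exonic bases with Olfm4; neither was analysed here. A930009A15Rik at Lgr5 and 4930474M22Rik at Smoc2 overlap the genes but not their exons, and each had 0 and 1 counts. The same holds for the position of Mir7041 within Lrig1, which was not analysed here.

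Hopx was the only marker whose transcript mix could be followed. Its mean transcript length was 1115.5 nt in the control and 1119.28 in the knockout pool, a change of 0.339%. Among 2915 measured genes with several transcripts and at least 100 counts in each pool, the median change was 0.263% and 45.4% changed more, so the Hopx value is an ordinary one. The GENCODE lengths of the 3 transcripts are 1113, 1217 and 1261 nt, and both means lie next to the shortest.

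Relatives of the markers in the same gene families were also examined. Lgr4, the receptor closest to Lgr5 and present throughout the epithelium, was at 12.07 FPKM in the control and 17.74 in the knockout pool. Its ratio of 1.47 (1.32 to 1.64) was close to the 1.49 of Lgr5, from 545 and 786 counts. Lgr6 had 4 and 2 counts. Smoc1 was at 1.07 and 2.48 FPKM, giving a ratio of 2.32 (1.52 to 3.60), and within 2-fold on the scale with 1 FPKM added (0.75). Lrig2 (2.44 and 2.84 FPKM) and Lrig3 (5.74 and 5.97) had ratios of 1.16 (0.932 to 1.45) and 1.04 (0.853 to 1.26). The interval of Lrig3 lay below that of Lrig1. Cdca7l was at 4.39 and 4.6 FPKM, Pcgf2, the relative of Bmi1, at 3.42 and 4.44, Rgma at 1.41 and 1.18, and Olfm1 at 1.47 and 1.98, all with intervals that include 1. Of 15 relatives in the table, 8 were measured and 0 were past 2-fold, where 2.78% of measured genes were higher and 1.28% lower by that rule. A log2 ratio above 0 was found for 7 of the 8, against 62.5% of measured genes. An interval above 1 was found for 2, against 28.0%.

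Ligands and antagonists of the Lgr receptors were measured as well. The R-spondins, which come from stromal cells, were scarce: Rspo3 was at 0.75 and 0.86 FPKM (16 and 18 counts), Rspo1 at 0.37 and 0.32, and Rspo2 had 3 and 1 counts. Rspo4 had 0 and 3 counts. No difference in any R-spondin was detectable at this depth. Rnf43 and Znrf3 are membrane ubiquitin ligases that remove Wnt receptors, are cleared by R-spondin with Lgr proteins, and are themselves Wnt targets. Rnf43 was at 13.24 FPKM in the control and 19.27 in the knockout pool, giving a ratio of 1.46 (1.30 to 1.63), and its log2 ratio of 0.51 stood beside 0.52 for Lgr4 and 0.38 for Lgr5. Znrf3 was at 0.82 and 1.58, giving a ratio of 1.82 (1.30 to 2.64), and counts as measured through the knockout pool alone.

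The binding partners of Rgmb and Lrig1 did not share one direction. Neogenin (Neo1), a receptor for Rgm proteins, was at 7.87 FPKM in the control and 6.54 in the knockout pool, giving a ratio of 0.831 (0.728 to 0.947). The BMP receptors Bmpr1a (19.39 and 21.27) and Bmpr2 (3.74 and 4.81) had ratios of 1.10 (1.003 to 1.20) and 1.29 (1.12 to 1.48). The ligand Bmp2 was at 11.61 and 8.52, a ratio of 0.734 (0.624 to 0.862), and Bmp4 at 6.21 and 6.59 had an interval that includes 1. Of the receptors that Lrig1 restrains, Erbb3 was at 75.3 and 49.35 FPKM, giving a ratio of 0.655 (0.617 to 0.696). Egfr, at 3.21 and 4.08, and Met, at 8.87 and 11.27, had ratios of 1.30 (1.04 to 1.61) and 1.27 (1.13 to 1.43), and Erbb2 was at 29.9 and 27.61.

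Partners of Bmi1 in the polycomb repressive complex PRC1, which ubiquitylates histone H2A, were described as a list. Of 19 genes, all measured, 0 were past 2-fold, 16 had a log2 ratio above 0 (62.5% of measured genes did) and 8 an interval above 1 (28.0% did), with a median of 0.24. The catalytic subunits Ring1 and Rnf2 were at 6.09 and 5.81 FPKM and at 4.88 and 6.07, both with intervals that include 1. Scmh1 (3.19 and 5.21) and Cbx8 (4.53 and 7.09) had the highest log2 ratios, 0.57 and 0.55, and Phc2 (24.43 and 27.47) was most abundant. Pcgf1 (4.98 and 4.17) and Pcgf5 (9.38 and 8.32) occupy the place of Bmi1 in other PRC1 complexes. Their log2 ratios were the lowest of the list, -0.21 and -0.16, beside -0.19 for Bmi1, all with intervals that include 1. Pcgf2, Pcgf3 and Pcgf6, which occupy that place too, had log2 ratios of 0.30, 0.06 and 0.39. Of these, only the interval of Pcgf6 (1.04 to 1.82) excluded 1. Cdkn2a, the locus of the cell cycle inhibitors that Bmi1 is known for silencing, had 0 counts in the control and 15 in the knockout pool (1.94 FPKM). It was at least 5.09-fold higher against a floor of 3 counts in the control library, a bound that leaves out the counting error of the 15; the counting interval of the ratio starts at 3.65. Cdkn2a counts as measured through the knockout pool alone.

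The companions of Tert showed little difference. Of 16 genes of telomerase and of shelterin, which caps telomeres, 15 were measured and 0 were past 2-fold. A log2 ratio above 0 was found for 11, against 62.5% of measured genes. The median of the 15 was 0.12, near the 0.08 of all measured genes. Nhp2, of the RNA-binding core of telomerase and of snoRNPs, was at 21.75 FPKM in the control and 32.72 in the knockout pool, giving a ratio of 1.50 (1.25 to 1.82). Acd was at 5.69 and 7.85, and Nop10, the most abundant, at 30.47 and 31.21. Rtel1, a helicase that unwinds telomere loops, was at 3.08 and 1.93, a ratio of 0.623 (0.460 to 0.839), and Pot1b at 4.18 and 3.25. The template RNA Terc had 0 and 1 counts. Hells, the remodeller that Cdca7 recruits, was at 3.49 and 4.46 FPKM, giving a ratio of 1.28 (0.967 to 1.70). Of the proteins that Hopx binds, Srf was at 12.49 and 11.53 FPKM, giving a ratio of 0.923 (0.805 to 1.06), and Hdac2 at 16.36 and 23.59, a ratio of 1.44 (1.24 to 1.68).

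Other markers of the crypt base had higher log2 ratios by median, 0.63 against 0.34 for the 10 genes. Of 25 others in the list, 23 were measured, 3 of them through the knockout pool alone, so the filter fixed the direction of those 3. Among the 23, 6 were at least 2-fold higher, against 2.78% of all measured genes, and 0 lower. A log2 ratio above 0 was found for 22, against 62.5%, and an interval above 1 for 20, against 28.0%. The list includes Wnt targets. The highest ratios were those of Gkn3 (10.3 FPKM in the control and 93.88 in the knockout pool) and the positioning receptor Ephb3 (2.09 and 9.94). The lowest were those of Tnfrsf19 (1.34 and 1.31) and Cdk6 (2.05 and 2.36), and Id3, a BMP target, was most abundant (82.83 and 96.03). Of 8 other genes proposed for reserve or injury-responsive stem cells, 7 were measured, 2 of them through the knockout pool alone. The filter fixed the direction of those 2. All 7 had a log2 ratio above 0, against 62.5% of measured genes, and the median was 0.69. At least 2-fold higher was 1 of the 7, against 2.78%. That gene was Clu (35.79 and 195.18 FPKM, giving a ratio of 5.45, 4.99 to 5.97), and Prox1 was at 0.3 and 1.57, Krt19 at 622.01 and 818.1, and Dll1 at 10.66 and 11.19. Msi1, Mex3a and Sox9 stand in both lists, and Krt19 is also in the pan-epithelial list. Of the 6 crypt base genes past 2-fold, 1, Gkn3, is also made by stomach.

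**Figure D3:**
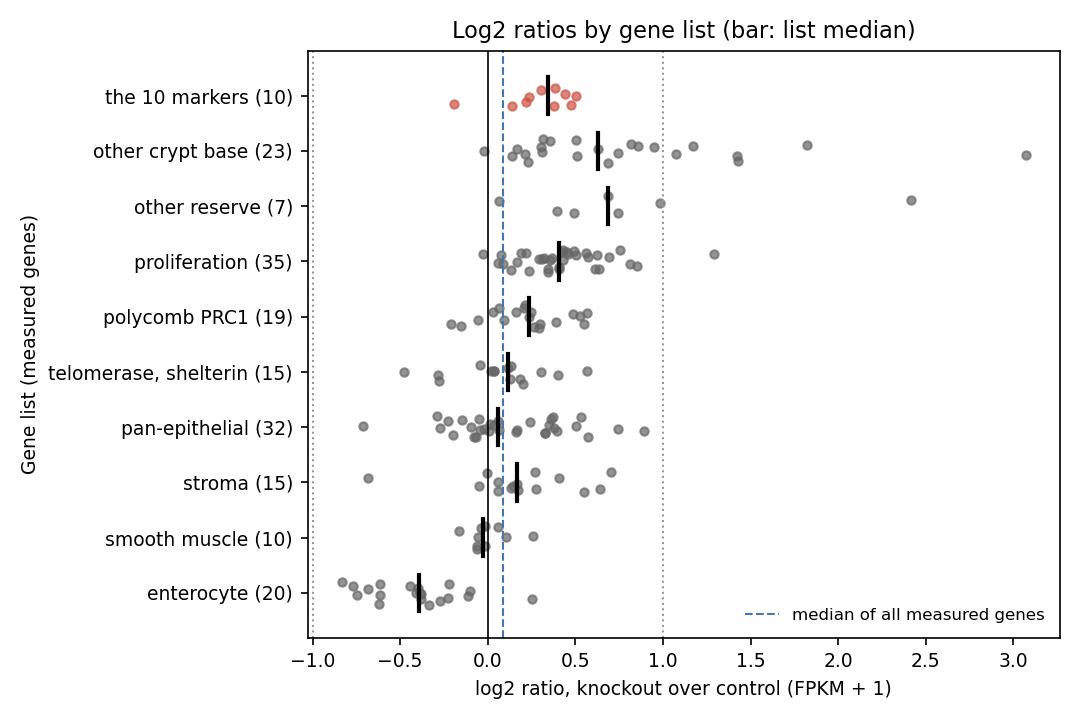
Log2 ratio of knockout over control (FPKM with 1 added) for the measured genes of 10 lists, 1 point per gene, with the number of genes in brackets; black bars are list medians, the dashed line is the median of all measured genes (0.08) and dotted lines mark 2-fold. The 10 markers (median 0.34) lie between -0.19 and 0.51, while 6 other crypt base genes lie beyond 1.

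Relative to genes of dividing cells, no marker stood higher beyond counting error. Of 35 proliferation genes, all measured, 34 had a log2 ratio above 0, against 62.5% of all measured genes. The median of the 35 was 0.41, close to the 0.34 of the 10 markers. Pcna, the replication clamp, was at 77.99 FPKM in the control and 126.69 in the knockout pool, Mcm2 of the replicative helicase at 7.03 and 18.67 and Cdc20, an activator of mitotic exit, at 11.22 and 21.06, while Gmnn (23.58 and 23.08) and Mcm3 (9.46 and 9.88) differed least. When the counts were scaled so that the median FPKM ratio of the proliferation genes was 1 (a scale chosen after the data were seen), 0 of the 10 markers had an interval above 1 and 3 had one below it. Those were Olfm4 (0.847, 0.786 to 0.912), Rgmb (0.809, 0.663 to 0.987) and Bmi1 (0.616, 0.486 to 0.780). Lgr5 (1.08), Ascl2 (1.04), Smoc2 (1.001), Lrig1 (1.07) and Hopx (1.02) all lay within counting error of 1 on that scale.

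Scaled to the pan-epithelial list instead, 5 of the 10 kept an interval above 1. That list had 0 of 32 genes past 2-fold and 20 above 0, the same share as the 62.5% of all measured genes, and a median of 0.06, with Krt8 most abundant (1739.55 and 1820.62 FPKM). Its genes varied, with 15 intervals above 1 and 8 below. Intervals scaled to either list take the list median as exact and leave out the spread within the list. On the pan-epithelial scale Lgr5 had a ratio of 1.43 (1.04 to 1.98), Olfm4 1.12 (1.04 to 1.20), Smoc2 1.32 (1.16 to 1.51), Lrig1 1.41 (1.23 to 1.62) and Hopx 1.34 (1.20 to 1.50). Cdca7 dropped out, at 1.14 (0.975 to 1.33). Absorptive enterocyte genes were lower in the same pool, with 19 of 20 below 0, against 37.2% of measured genes, and a median of -0.39. The Lgr5 log2 ratio was 0.77 above the enterocyte median and 0.32 above the pan-epithelial one. That of Bmi1, the lowest of the 10, was 0.20 above the enterocyte median, and its difference from the pan-epithelial median was -0.25.

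**Figure D4:**
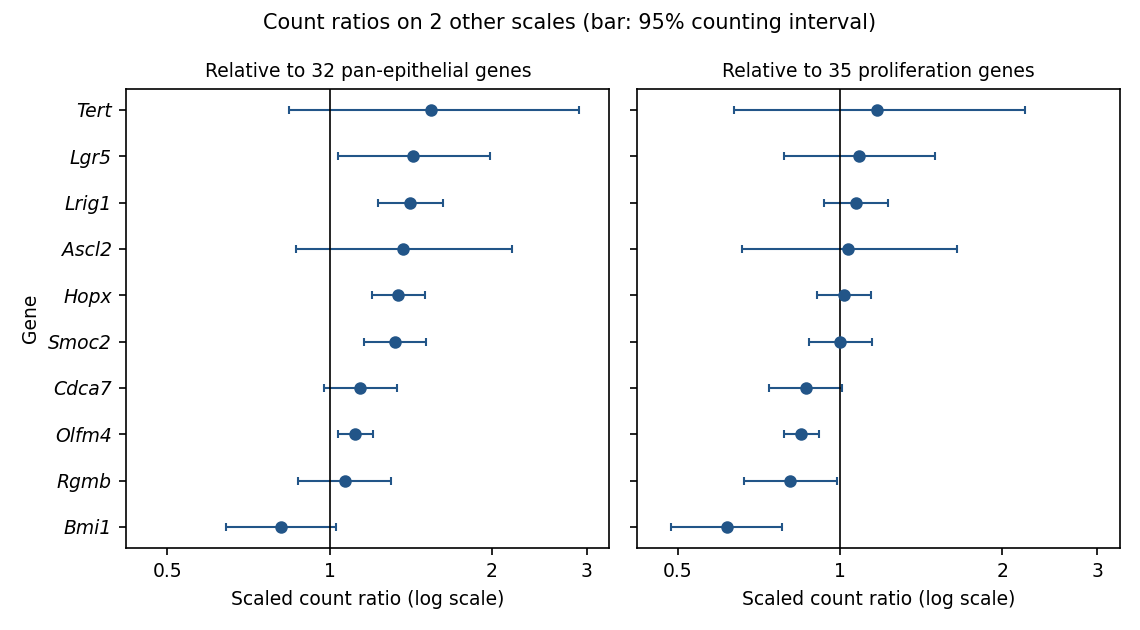
Count ratios of the 10 genes (log scale, bars 95% counting intervals) after scaling to the median FPKM ratio of 32 pan-epithelial genes (left) or 35 proliferation genes (right). On the left the intervals of Lgr5, Olfm4, Smoc2, Lrig1 and Hopx lie above 1; on the right no interval does, and those of Olfm4, Rgmb and Bmi1 lie below it.

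Transcripts of other cell types also differed between the pools. Over all measured genes the share at least 2-fold higher was 2.78%. Of the stomach list 9 genes were measured, 8 of them through the knockout pool alone, so the filter largely fixed their direction. The summed level of the list was 13.6 FPKM in the control and 164.01 in the knockout pool. Gkn3, which is also in the crypt base list above, made up 10.3 and 93.88 FPKM of these sums. Gkn2, Muc5ac, Gif and Lipf were at 0 in the control pool, with 9, 62, 10 and 21 counts in the knockout pool. Pga5 went the other way, with 2 counts in the control and 0 in the knockout pool. Stomach glands express Lgr5 and Lrig1 too. Of the pancreatic acinar list 16 of 19 measured genes were at least 2-fold higher, 3 of the 19 being measured through the knockout pool alone, with sums of 4739.66 and 8562.78 FPKM that are mostly Reg1 and Zg16, which the intestine makes, and with Prss1 and Try10 at 0 in the control pool. The globin and red cell list had 4 of 4 measured genes at least 2-fold higher, all of them globins (sums of the list 66.06 and 240.0 FPKM). Its other genes in the data, Alas2 and Slc4a1, fell below the filter. Alas2 had 10 and 12 counts and Slc4a1 0 and 3, with no difference detectable at this depth. The part of these tissues in the levels of the 10 markers was not tested.

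Lists of other cell types of the gut wall were described in the same way. Over all measured genes, 62.5% had a log2 ratio above 0, 2.78% were at least 2-fold higher and 1.28% at least 2-fold lower. Among 15 stromal genes, 12 were above 0 and 0 past 2-fold, with a median of 0.17 and sums of 283.52 and 297.45 FPKM, beside a log2 ratio of 0.44 for Smoc2, which stromal cells also make. Among 10 T cell genes, 3 were above 0, with a median of -0.07 and sums of 191.12 and 205.11 FPKM, beside 0.47 for Hopx. Smooth muscle genes had a median of -0.03 (sums 662.19 and 680.77), myeloid genes 0.15 (251.03 and 240.84), and endothelial genes 0.32, with 8 of 8 above 0 (32.12 and 44.73). In the B and plasma cell list 2 of 8 were at least 2-fold lower, and 1 of them, Ms4a1 (5.73 and 0.9 FPKM), was measured through the control pool alone. The sums of that list, 800.35 and 951.26, are mostly Jchain (609.1 and 744.69). Of 9 genes of Paneth cells, which flank the crypt base stem cells, 4 passed 2-fold downward and 1 upward, with a median of -0.91 and sums of 9050.15 and 4609.74 FPKM. None of these lists had a gene at 0 in either pool, and their part in the marker levels was not tested.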

How the data were processed

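The aligners BWA and Bowtie2, the build mm10 and the quantifier RSEM are named, per the submitters' processing notes; tool versions are not given in the sources used here. Per the file headers, the authors deposited expected counts, FPKM and mean transcript lengths (nt, kept as another unit) per gene for each library, and 1 table of both FPKM columns. The deposited expected counts were rounded for intervals only. Gene symbols came from the deposited table.

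From these, log2 ratios (pseudocount of 1 FPKM), count ratios scaled to library totals with exact 95% Clopper-Pearson intervals, and exact Poisson intervals of levels were computed in Python 3.11.15 (scipy 1.17.1, pandas 2.3.3, numpy 2.4.6), and TMM factors with edgeR 4.0.16 in R 4.3.3, for scaling only. The floor for a count of 0 was 3 counts, or 0.341 CPM for control and 0.347 for knockout. Reads without molecular identifiers are not independent molecules. The interval code was tested on simulated data. Promoter windows came from RefSeq (GRCm38.p6), overlaps from GENCODE M21 of the same build.

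The 10 members and all lists were chosen with earlier results of these data known. Named genes follow a rule: the 10 members, their relatives and partners, Setd2, and up to 2 highest, 2 lowest and the most abundant of each list described. Genes near a member were named by position. Epcam, Ring1, Rnf2, Pcgf3, Pcgf6, Terc, Msi1, Mex3a, Sox9, Alas2 and the genes named as at 0 in 1 pool were chosen after their values were seen. Alternatives were other pseudocounts, filters, units and scalings.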

Additional observations from a re-analysis of the deposited data

How the results depend on the processing

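Across the planned pseudocounts, filters, units and scalings, 9 of the 10 markers kept a log2 ratio above 0 where all 10 were measured, 0 passed 2-fold in either direction and Bmi1 stayed below 0. Under the median-ratio, TMM and pan-epithelial scalings, 5 counting intervals (recomputed as a choice made after seeing the data) lay above 1 each time, without that of Cdca7. For Lgr5 and Olfm4 this was only just so, with both lower bounds at 1.010 under the median-ratio and at 1.001 under the TMM scaling. Scaling by proliferation genes, added after seeing the data, lowers every log2 FPKM ratio by 0.46 before the pseudocount and changed directions, though still 0 markers passed 2-fold. There the median of the 10 was 0.0104, 4 were below 0, and Olfm4, Cdca7 and Rgmb turned to -0.24, -0.20 and -0.27, while 17.5% of measured genes were above 0. There too, 0 counting intervals lay above 1 and 3 below. With TMM scaling, 1 interval, that of Bmi1, lay below 1. Among reserve and injury genes, 4 were at least 2-fold higher with a pseudocount of 0.1. Genes at least 2-fold higher and lower over the whole table numbered 369 and 170 as reported, 699 and 282 with a pseudocount of 0.1, 758 and 301 with 0.01, 191 and 84 with a filter of FPKM 5, and 218 and 385 when scaled by proliferation genes. Before the pseudocount, TMM scaling moved log2 ratios by -0.11 and scaling by the median ratio by -0.10; with it, scarce genes moved less. No paired analysis was possible because each genotype had 1 library. Depth limits Tert (19 and 30 counts) and Ascl2 (35 and 49) most.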
